A study of Mus musculus with 13 samples.

Results

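The red cell miRNAs miR-451a, miR-486a-5p, miR-144-3p and miR-16-5p were followed through 13 small RNA libraries of extracellular vesicles from a mouse model of cancer cachexia. The members were taken by name, and all 4 were listed in both deposited tables, which together list 1452 mature miRNAs. C26 cells are a colon adenocarcinoma line of Balb/C origin. Vesicles that these cells shed into serum-free medium over 48 h, named TMVs in the labels, gave 3 libraries. Plasma vesicles gave 6 libraries from Balb/C mice labelled cachectic, killed 14 days after C26 cells were injected under the skin of the back. They gave 4 libraries from Balb/C mice labelled healthy, which serve as controls, and the descriptions of control libraries 2 and 3 carry 2 numbers whose meaning is not stated. All vesicles were pelleted by the same final spin at 100000 g, and no step is recorded that would separate vesicles by their cell of origin. The labels do not give the age or sex of the mice, and no label ties a library to its own animal, so the p-values given here speak of spread among libraries, which may be technical.

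Mir451a and Mir144 are transcribed together in red cell precursors under the erythroid factor GATA1. miR-451a is made without Dicer: Argonaute 2 itself cuts its short hairpin, so the mature strand runs into the loop. In mice miR-451a protects red cells against oxidative stress through its target Ywhaz, which encodes a 14-3-3 protein. miR-144-3p targets the oxidative stress factor Nrf2. miR-486a-5p is abundant in red cells and also in heart and skeletal muscle, where it represses Foxo1. miR-16-5p restrains cyclins and Bcl2, is made in nearly all cells and is abundant in red cells. Mature red cells keep these miRNAs after losing the nucleus, and their rupture during blood sampling releases miR-451a and miR-16-5p into plasma.

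The sequences show how far these members can be told apart by counting. RefSeq sequences on GRCm38.p6 were found for 3 of the 4 members, miR-486a-5p being the one without an entry in the table used. How far miR-486a-5p can be told by counting from the similarly named miR-486b was therefore not examined. In these lines the seed, bases 2 to 8, is in capitals.
mmu-miR-451a: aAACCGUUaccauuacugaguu
mmu-miR-144-3p: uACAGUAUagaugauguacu
mmu-miR-16-5p: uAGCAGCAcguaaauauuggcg
mmu-miR-15b-5p: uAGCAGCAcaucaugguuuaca
mmu-miR-195a-5p: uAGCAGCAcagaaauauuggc
The seeds of miR-451a, miR-144-3p and miR-16-5p differ from each other. The seed of miR-16-5p was shared by all 5 of its listed relatives, miR-15a-5p, miR-15b-5p, miR-195a-5p, miR-497a-5p and miR-322-5p. miR-195a-5p matched miR-16-5p at 19 of 21 positions counted from the 5′ end and miR-15b-5p at 14 of 22. The labels do not say how reads of such relatives were divided, so counts of miR-16-5p are uncertain against miR-195a-5p. The mature strands were 22, 20 and 22 bases long in miR-451a, miR-144-3p and miR-16-5p, so shares of counts were not scaled by length.

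The hairpins of Mir451a and Mir144 are shown with the counted strand in capitals, because they come from one transcript and yet differed greatly in counts.
Mir451a: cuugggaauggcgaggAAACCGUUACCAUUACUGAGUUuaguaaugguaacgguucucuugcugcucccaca
Mir144: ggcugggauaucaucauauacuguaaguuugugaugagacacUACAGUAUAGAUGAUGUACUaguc
Mir144 lies at chr11:78073005-78073070 and Mir451a at chr11:78073170-78073241, both on the plus strand with 99 bases between them, outside any annotated protein-coding gene of GENCODE M21. The counted strand took bases 17 to 38 of the 72-base Mir451a hairpin. It took bases 43 to 62 of the 66-base Mir144 hairpin, which also gives miR-144-5p. miR-16-5p comes from Mir16-1 at chr14:61631880-61631972 on the minus strand within an exon of the non-coding Dleu2, and from Mir16-2 at chr3:69009902-69009996 on the plus strand, in an intron of the condensin gene Smc4. Its counts do not separate the 2 hairpins.

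The plasma libraries fell into 2 sets that crossed the groups, and this bears on each result below. miR-5119, whose origin in these libraries is not established, held 26.6% to 58.7% of counts in C26 plasma libraries 1 to 4 and 46.1% in control library 4. It held at most 2.55% in C26 plasma libraries 5 and 6 and in control libraries 1 to 3. The first 5 are called miR-5119-rich and the others miR-5119-poor, divided at 20% of counts. The first 5 carry sheet numbers 18 to 22 in the plasma descriptions, which run from 15 to 24, and what these numbers stand for is not stated. Total counts ran from 7962 to 131385 in plasma, with 9828 in C26 plasma library 4 and 7962 in control library 4 as the shallowest, and from 112357 to 170571 in TMVs. Intervals given for shares are 95% Wilson intervals and cover counting error only.

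miR-451a was among the leading miRNAs of plasma vesicles in both groups. It held 1.70%, 2.45%, 3.12%, 3.86%, 4.50% and 1.28% of counts in C26 plasma libraries 1 to 6, against 3.41%, 2.29%, 5.61% and 3.55% in control libraries 1 to 4. The groups overlapped, and the highest of all 10 plasma libraries was 4.38-fold above the lowest. That range was 9.63-fold for miR-144-3p, but with miR-5119 left out of the totals it was 5.88-fold for miR-451a and 4.56-fold for miR-144-3p. Its rank by count lay between 4 and 11 in C26-bearing libraries and between 4 and 6 in control libraries.

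miR-486a-5p separated the plasma libraries by their miR-5119 content and not by tumour. It held 1.65%, 1.79%, 1.52% and 4.17% of counts in C26 plasma libraries 1 to 4 and 2.22% in control library 4. It held 20.7% and 51.3% in C26 plasma libraries 5 and 6, against 19.6%, 17.1% and 25.5% in control libraries 1 to 3. The 5 miR-5119-rich libraries lay below all 5 miR-5119-poor ones, and each group had members on both sides. With 16549 of 32234 counts, miR-486a-5p took over 50% of C26 plasma library 6 (interval 50.8% to 51.9%). It was the most counted miRNA in C26 plasma libraries 5 and 6 and in control library 3.

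miR-16-5p divided the plasma libraries the other way. Its share was 0.135%, 0.230%, 0.389% and 0.122% in C26 plasma libraries 1 to 4 and 0.138% in control library 4. It was 0.0431% and 0.0403% in C26 plasma libraries 5 and 6, against 0.0222%, 0.0879% and 0.0670% in control libraries 1 to 3. Here the 5 miR-5119-rich libraries lay above all 5 miR-5119-poor ones, so the same split that goes with low miR-486a-5p goes with high miR-16-5p. Of these 10 values, 6 rest on 28 counts or fewer.

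miR-144-3p was rare in plasma beside its cluster partner miR-451a. It had 4, 12, 7, 4, 10 and 9 counts in C26 plasma libraries 1 to 6, against 49, 17, 134 and 5 counts in control libraries 1 to 4. As shares these were 0.0207%, 0.0157%, 0.0106%, 0.0407%, 0.0359% and 0.0279% in tumour-bearing mice, against 0.0389%, 0.0305%, 0.102% and 0.0628% in controls. As shares, 4 of 6 C26-bearing libraries lay below all 4 controls, and in TMM-scaled CPM 3 of 6 did. The others lay within the range of the controls. Such a count is not particular to miR-144-3p. In TMM-scaled CPM it was also 3 of 6 for miR-486a-5p, whose log2 fold change was -0.03, 2 for miR-451a and 0 for miR-16-5p. The lowest control share, 0.0305%, has an interval of 0.0190% to 0.0488% that takes in the highest C26-bearing share.

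**Figure D1:**
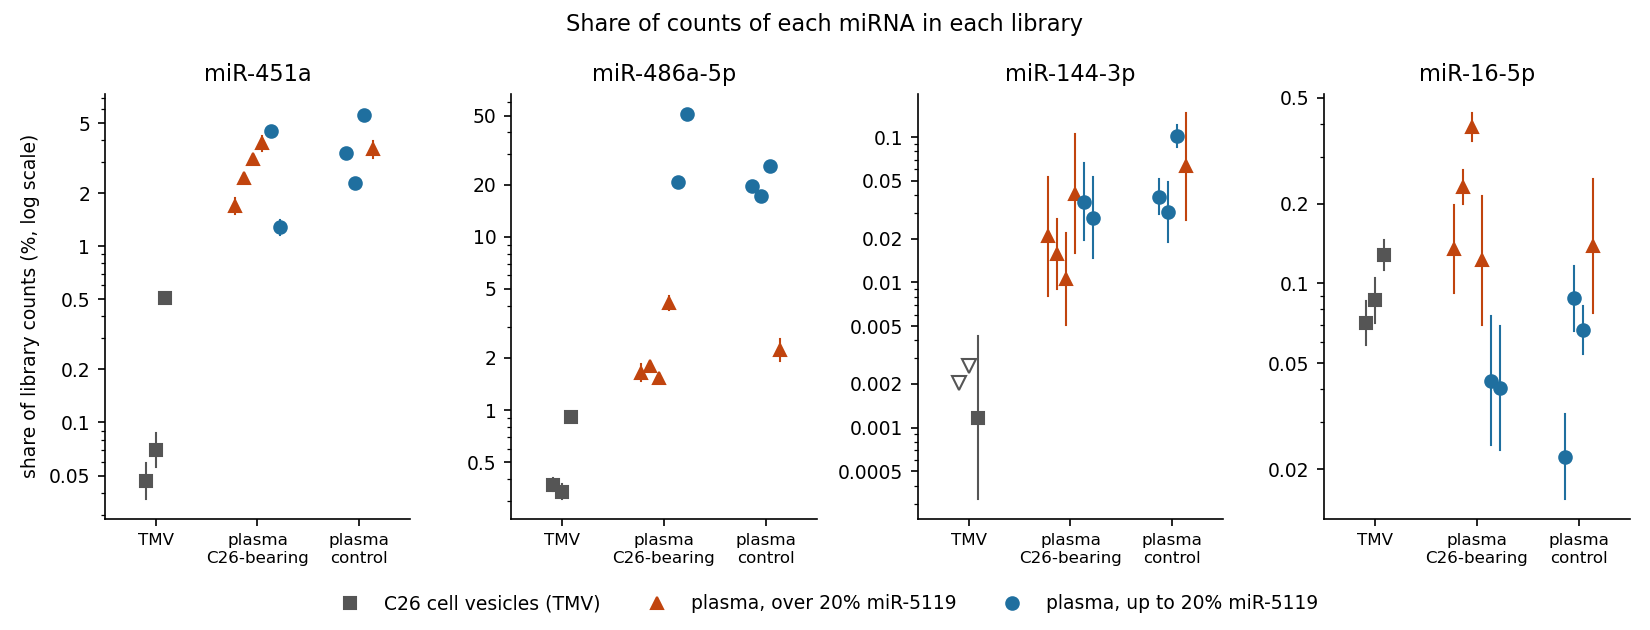
Share of library counts (percent, log scale) of each miRNA in each library, by group, with 95% Wilson intervals as bars and open downward triangles for libraries at 0 counts, drawn at 3 counts of the total. miR-486a-5p and miR-16-5p split the plasma libraries by miR-5119 content, miR-486a-5p at 1.52% to 4.17% against 17.1% to 51.3%, while miR-451a overlaps throughout.

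The split in miR-486a-5p and miR-16-5p was also present when miR-5119 was not counted. With miR-5119 left out of the totals, miR-486a-5p held 2.24% to 7.09% in the 5 miR-5119-rich libraries, against 17.3% to 51.5% in the miR-5119-poor set. miR-16-5p held 0.183% to 0.941% against 0.0222% to 0.0886%, still without overlap. In CPM scaled by TMM, a normalisation between libraries, both again did not overlap. In those units 22 of 130 miRNAs tested (16.9%) lay wholly lower in the miR-5119-rich set, as miR-486a-5p did, and 12 (9.23%) wholly higher, as miR-16-5p did, so many other miRNAs share either pattern.

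**Figure D2:**
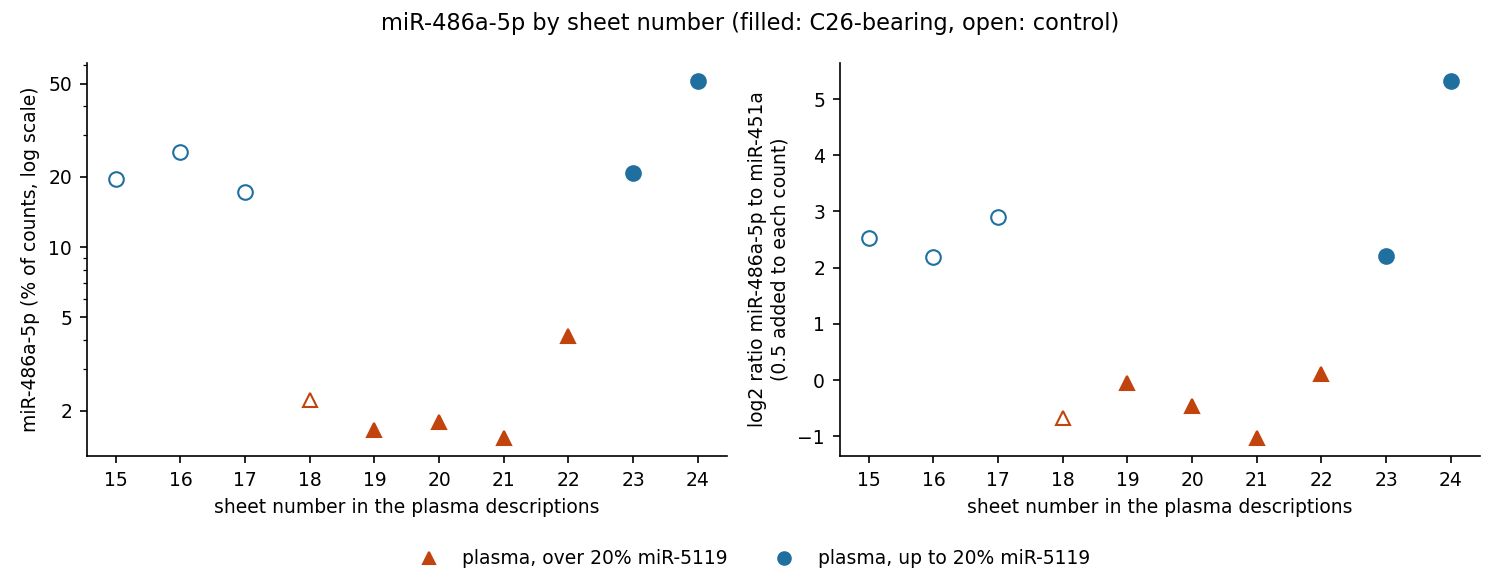
Share of miR-486a-5p (percent, log scale, left) and its log2 ratio to miR-451a (0.5 added to each count, right) against the sheet number in the plasma descriptions. The 5 libraries numbered 18 to 22, of which 4 are C26-bearing and 1 is control, lie below the 5 others in both panels.

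Ratios within a library do not use its total or the other miRNAs counted, and by them the 4 miRNAs did not keep fixed proportions. The ratio of miR-486a-5p to miR-451a was 0.970, 0.729, 0.488, 1.08, 4.60 and 40.1 in C26 plasma libraries 1 to 6, against 5.76, 7.46, 4.55 and 0.625 in control libraries 1 to 4. It lay at or below 1.08 in all 5 miR-5119-rich libraries and at or above 4.55 in all 5 miR-5119-poor ones. On the log2 scale it averaged 1.02 ± 2.38 over C26 plasma libraries (SD, n = 6) and 1.73 ± 1.63 over control libraries (SD, n = 4). The difference of -0.72 was smaller than either SD, and an exact permutation test over the 210 splits gave a two-sided p of 0.590, adjusted over 7 ratios 0.689.

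miR-144-3p kept closest to miR-451a. Its counts were 1.22%, 0.641%, 0.339%, 1.06%, 0.797% and 2.18% of those of miR-451a in C26 plasma libraries 1 to 6, against 1.14%, 1.33%, 1.82% and 1.77% in control libraries 1 to 4. Of the C26-bearing libraries, 4 lay below all controls by these percentages, 3 with 0.5 added to each count, and 1 lay above them. The log2 ratio was -6.71 ± 0.918 over C26 plasma libraries (SD, n = 6) and -6.02 ± 0.354 over control libraries (SD, n = 4), and the difference of -0.69 did not pass (exact permutation p = 0.210, adjusted 0.367). Within the miR-5119-poor libraries it was -0.04, and within the miR-5119-rich set, with its 1 control, -1.29.

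miR-16-5p had 7.93%, 9.41%, 12.5%, 3.17%, 0.957% and 3.15% of the counts of miR-451a in C26 plasma libraries 1 to 6, against 0.652%, 3.83%, 1.19% and 3.89% in control libraries 1 to 4. Of the C26-bearing libraries, 3 lay above all controls, and these are miR-5119-rich libraries. The log2 difference was 1.31 (exact permutation p = 0.186, adjusted 0.367). It was 0.31 within the miR-5119-poor libraries and 0.88 within the miR-5119-rich set, which holds 1 control.

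The widest spread was between miR-486a-5p and miR-16-5p. There were 12.2, 7.75, 3.92 and 34.2 counts of miR-486a-5p per count of miR-16-5p in C26 plasma libraries 1 to 4, and 481 and 1273 in libraries 5 and 6. In control libraries 1 to 4 there were 883, 195, 381 and 16.1. The log2 difference between the groups was -2.02 (exact permutation p = 0.352, adjusted 0.493). That of miR-144-3p to miR-16-5p was -1.99, with the smallest p of the 7 ratios at 0.100 and an adjusted p of 0.367, and that of miR-486a-5p to miR-144-3p was -0.03 (exact permutation p = 0.967, adjusted 0.967). The smallest p that this design allows is 0.00476.

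**Figure D3:**
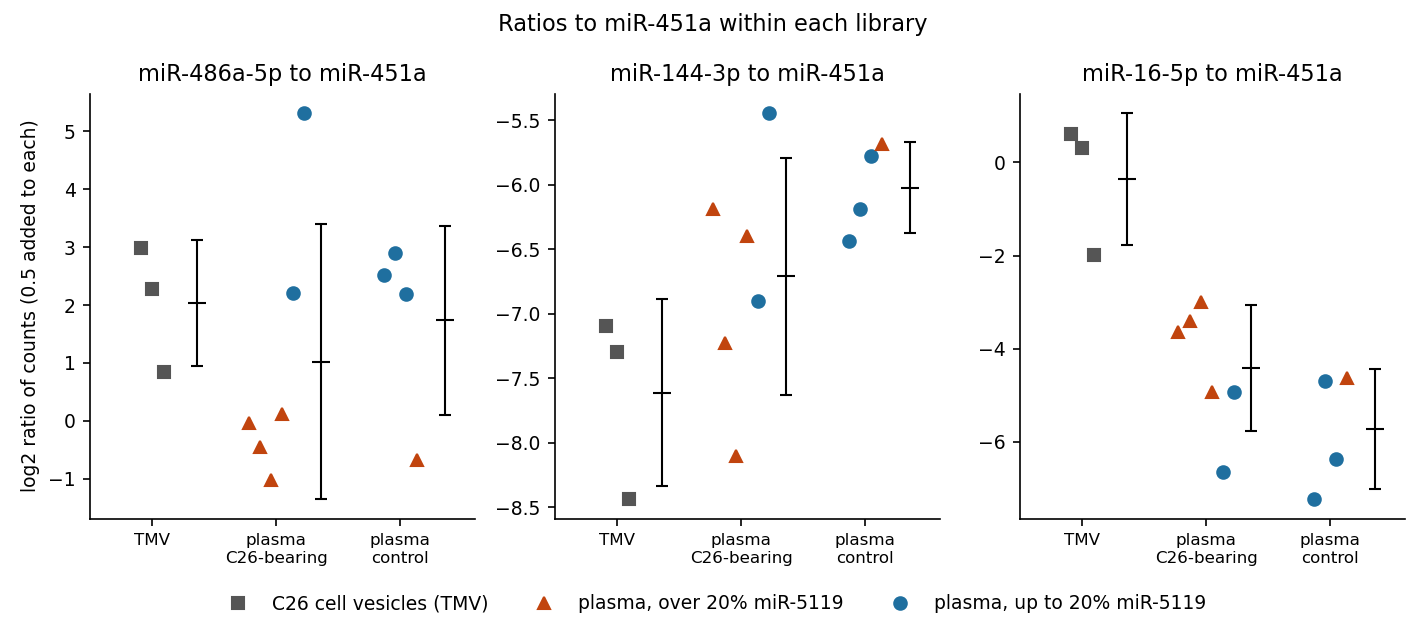
Log2 ratio of counts (0.5 added to each) of miR-486a-5p, miR-144-3p and miR-16-5p to miR-451a in each library, with group means and SDs as black bars. The log2 ratio of miR-486a-5p to miR-451a is at most 0.113 in the miR-5119-rich plasma libraries. It is 2.19 to 5.32 in the miR-5119-poor ones, with C26 plasma library 6 far above the others. The ratio of miR-144-3p to miR-451a has the smallest spread of those shown, with an SD of 0.797 over 10 plasma libraries.

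The ratio of miR-451a to miR-23a-3p is a measure of haemolysis in human plasma, since miR-23a-3p is little affected by red cell rupture there. It was 21.9, 11.6, 19.1, 94.8, 418 and 82.6 in C26 plasma libraries 1 to 6, against 215, 183, 230 and 40.4 in control libraries 1 to 4. The log2 difference was -1.497, the mean being 5.55 ± 1.84 over C26 plasma libraries (SD, n = 6) and 7.05 ± 1.22 over control libraries (SD, n = 4). It did not pass (exact permutation p = 0.186, adjusted 0.367). miR-23a-3p itself had 3 to 161 counts in C26-bearing libraries and 7 to 32 in controls. Its share did not overlap between the sets of libraries, at 0.0407% to 0.211% in the miR-5119-rich set against 0.0108% to 0.0244% in the miR-5119-poor set, while that of miR-451a did. Within the miR-5119-poor libraries the log2 difference in the ratio was -0.29, and within the miR-5119-rich set it was -0.59.

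In the test across all miRNAs, none of the 4 passed between C26-bearing and control plasma. edgeR's quasi-likelihood test with Benjamini-Hochberg adjustment passed 0 of 4 members at an adjusted p of 0.05, as it passed 0 of the 130 miRNAs that remained after the filter on low counts (0%). At an unadjusted p under 0.05 it counted 0 of 4 members, against 15 of 130 miRNAs (11.5%). DESeq2 called 0 of the 4, beside 4 of 130 miRNAs, and had 0 at an unadjusted p under 0.05, beside 22 of 130. limma voom with quality weights called 0 of the 4, beside 17 of 130 miRNAs. At an unadjusted p under 0.05 it had 3, miR-486a-5p, miR-144-3p and miR-16-5p, beside 51 of 130 miRNAs. Of the 4 log2 fold changes 3 were below 0, with a median of -0.15, beside 64 of 130 (49.2%) below 0 and a median of 0.01 over all miRNAs tested. All 4 members passed the filter. In TMM-scaled CPM, 0 of the 4 had all 6 C26-bearing libraries above all 4 controls and 0 had all below, against 1 of 130 miRNAs (0.769%) in each direction. With RLE scaling in place of TMM the median of all tested miRNAs moved to 0.19, and 2 of the 4 members lay below 0.

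miR-144-3p had the smallest p of the members. Its level was 261 ± 101 TMM-scaled CPM over C26 plasma libraries (SD, n = 6) and 578 ± 280 over control libraries (SD, n = 4), a log2 fold change of -1.13 (SE 0.539, edgeR adjusted p = 0.400). The value was below 0 under all 25 alternatives run, between -1.97 and -0.64, with adjusted p-values between 0.0959 and 0.998. It was -0.64 (SE 0.772) within the miR-5119-poor libraries and -1.97 (SE 1.08) within the miR-5119-rich set, and -0.75 without control library 4.

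miR-16-5p averaged 1960 ± 2140 TMM-scaled CPM (SD, n = 6) over C26 plasma libraries and 850 ± 731 over control libraries (SD, n = 4), a log2 fold change of 1.30 (SE 0.901, edgeR adjusted p = 0.651). With a term for the miR-5119 set of each library it was 0.05 (SE 0.657, edgeR adjusted p = 0.991). Within the miR-5119-poor libraries it was -0.27 (SE 0.759), and within the miR-5119-rich set 0.44 (SE 1.06). C26 plasma library 3, with 6107 TMM-scaled CPM, was the highest, and without it the log2 fold change was 0.62. Without control library 4 it was 2.17 and without control library 1 it was 0.87.

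miR-451a averaged 30433 ± 13881 TMM-scaled CPM (SD, n = 6) over C26 plasma libraries and 36983 ± 12408 over control libraries (SD, n = 4), a log2 fold change of -0.28 (SE 0.462, edgeR adjusted p = 0.789). It was -0.30 (SE 0.651) within the miR-5119-poor libraries and -0.67 (SE 0.745) within the miR-5119-rich set. It turned to 0.08 without control library 4. The number of vesicles of red cell origin and the amount of the miRNA per vesicle cannot be told apart in such bulk libraries.

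miR-486a-5p averaged 143513 ± 222656 TMM-scaled CPM (SD, n = 6) over C26 plasma libraries and 146106 ± 82248 over control libraries (SD, n = 4), a log2 fold change of -0.03 (SE 1.104, edgeR adjusted p = 0.995). The value moved with 1 library and with the tool. Without C26 plasma library 6 it was -1.45 (edgeR adjusted p = 0.387), and with limma voom and quality weights over all 10 libraries it was -1.86 (adjusted p = 0.103). With the term for the miR-5119 set it was 0.48 (SE 0.574), within the miR-5119-poor libraries it was 1.08 (SE 0.777), and within the miR-5119-rich set it was -0.33 (SE 0.762).

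**Figure D4:**
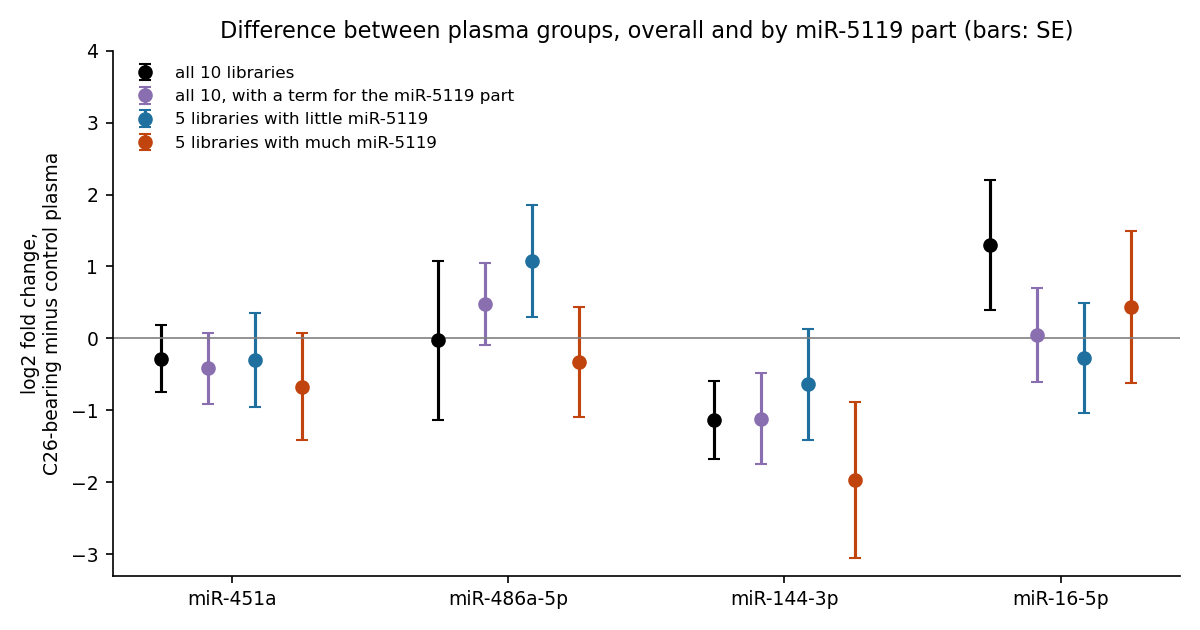
Log2 fold change of C26-bearing over control plasma (edgeR, bars are SE) for each miRNA over all 10 plasma libraries, with a term for the miR-5119 set, and within each set. miR-16-5p goes to 0.05 with the term, against 1.30 over all libraries without it, while miR-144-3p stays below 0 in all 4 fits, none of them past an adjusted p of 0.05.

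For miR-486a-5p and miR-144-3p the other strand of the same hairpin gave a second reading of the precursor. miR-16-5p was set beside the other strands of its 2 hairpins, and no other strand was examined for miR-451a. miR-486a-3p, from the same hairpin as miR-486a-5p, had 4, 12, 8 and 5 counts in C26 plasma libraries 1 to 4 and 2 in control library 4. It had 102 and 79 counts in C26 plasma libraries 5 and 6, against 226, 246 and 911 in control libraries 1 to 3. Its share split the libraries without overlap in the same direction as the 5p strand, 0.0121% to 0.0509% in the miR-5119-rich set against 0.179% to 0.693% in the miR-5119-poor set. The number of 5p counts per 3p count stayed between 36.8 and 209 in all 10 plasma libraries, a narrower range than the 33.7-fold range of the 5p share. miR-486a-3p had a log2 fold change of -1.27 (SE 0.993, edgeR adjusted p = 0.651). With limma voom it was among the 17 of 130 miRNAs called, lower in tumour-bearing mice (log2 fold change -3.21, adjusted p = 0.0247). DESeq2 did not call it (log2 fold change -1.21, adjusted p = 0.597). With edgeR and the term for the miR-5119 set its log2 fold change was -0.34 (SE 0.524).

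miR-144-5p was as common as miR-144-3p in the miR-5119-rich libraries and rarer in most of the others. It had 3, 18, 17, 5, 1 and 9 counts in C26 plasma libraries 1 to 6, beside 4, 12, 7, 4, 10 and 9 counts of miR-144-3p. In control libraries 1 to 4 it had 3, 8, 22 and 3 counts, beside 49, 17, 134 and 5. The 3p strand was thus the more counted in 4 of 4 controls and in 2 of 6 C26-bearing libraries. edgeR gave miR-144-5p a log2 fold change of 0.83 (SE 0.900, adjusted p = 0.747). Whether the balance of strands differs between the groups was not tested.

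The strand opposite miR-16-5p in Mir16-1, miR-16-1-3p, was counted 1, 4, 8 and 1 times in C26 plasma libraries 1 to 4 and 0 times in control library 4, where 0 allows up to 0.0377% of counts. It had 2 and 6 counts in C26 plasma libraries 5 and 6, against 21, 12 and 16 counts in control libraries 1 to 3. There were 1.33 to 6 counts of miR-16-5p per count of it in the 5 miR-5119-poor libraries, and 12 to 44 in the 4 miR-5119-rich libraries in which it was counted. Unlike the strands of miR-486a, miR-16-5p and miR-16-1-3p therefore did not go together across the 2 sets. The miR-5119-rich values of miR-16-1-3p rest on 8 counts or fewer. Its share overlapped between the sets, at 0% to 0.0121% in the miR-5119-rich set against 0.00718% to 0.0215% in the miR-5119-poor set. miR-16-5p also comes from Mir16-2, so its ratio to miR-16-1-3p is not one of strands of a single hairpin. miR-16-2-3p had 0 to 2 counts in C26-bearing libraries, and 11 in control library 3 with 0 in the other controls.

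**Figure D5:**
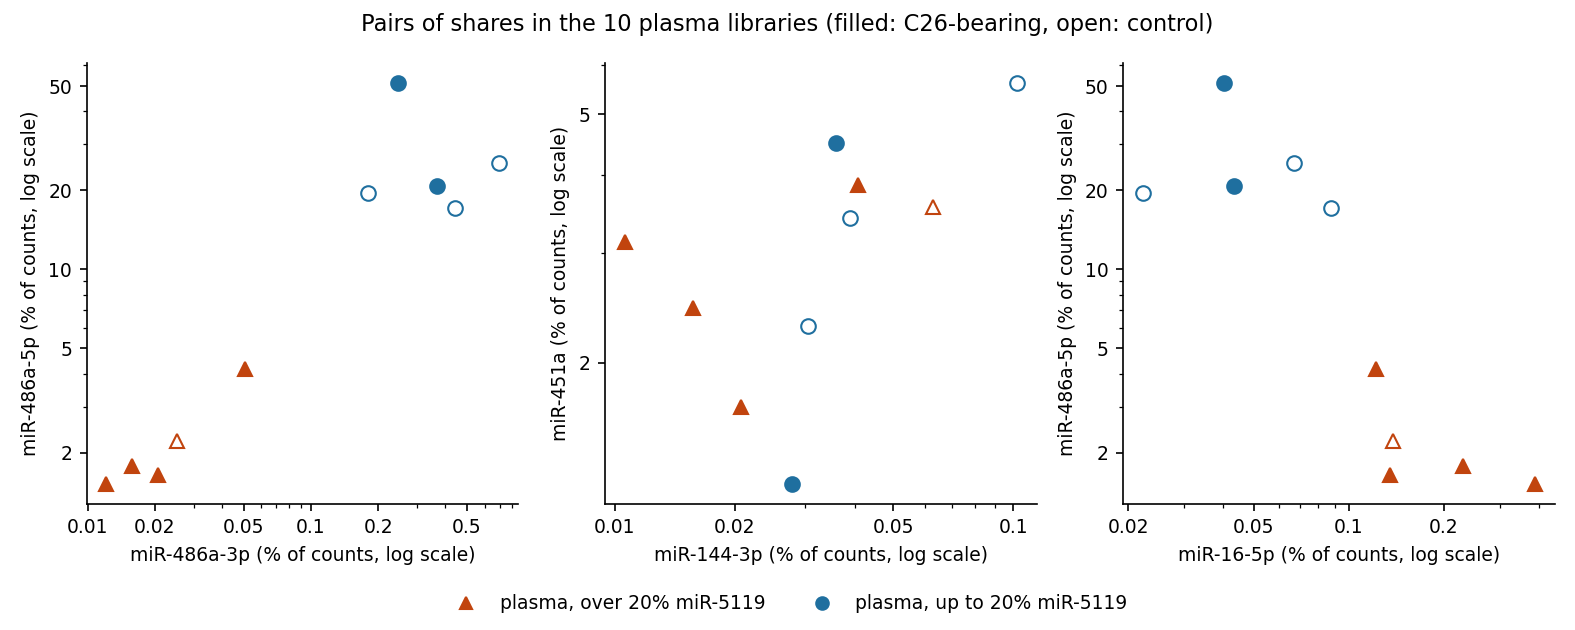
Shares of counts (percent, log scales) of pairs of miRNAs in the 10 plasma libraries, filled for C26-bearing and open for control. Both strands of miR-486a are low in the 5 miR-5119-rich libraries, while miR-486a-5p and miR-16-5p lie at opposite ends, 1.52% with 0.389% in C26 plasma library 3 and 19.6% with 0.0222% in control library 1.

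Likeness to other miRNAs was measured as the SD, over the 10 plasma libraries, of the log2 ratio to each of the other 129 tested. For miR-451a the closest was miR-142a-5p (SD 0.549), found in white blood cells, followed by miR-185-5p, miR-26a-5p, miR-320-3p and the endothelial and platelet miRNA miR-126a-3p, against a median SD of 1.31. miR-144-3p stood 14th for miR-451a (SD 0.797), and miR-16-5p 67th (SD 1.42). miR-486a-5p stood only 103rd (SD 2.04), which is beyond the median. For miR-144-3p the closest was miR-320-3p (SD 0.605), then miR-106b-3p, miR-25-3p, miR-451a (SD 0.797, rank 4) and miR-92a-3p. For miR-486a-5p the closest were miR-328-3p (SD 0.458), miR-151-3p, let-7d-3p, miR-155-5p and miR-128-3p, and none of the other 3 members came before rank 40. For miR-16-5p they were miR-30c-5p (SD 0.634), miR-93-5p, miR-23a-3p, let-7g-5p and miR-21a-5p. The SD between miR-486a-5p and miR-16-5p themselves was 3.08, too far apart for their 5 nearest miRNAs to share a name.

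The other red cell miRNAs were less often measurable. Of the 11 listed, 4 were tested and 0 were called by edgeR, with 0 at an unadjusted p under 0.05, 2 above 0 and 2 below 0. miR-25-3p, of the miR-106b cluster, held 0.322% to 2.75% in C26-bearing plasma, against 1.04% to 2.80% in controls, with a log2 fold change of -0.37 (SE 0.537). miR-92a-3p had -0.06 (SE 0.456), miR-93-5p 1.56 (SE 0.727, edgeR adjusted p = 0.395) and miR-15b-5p 1.38 (SE 1.26). miR-15b-5p was the 1 of 5 seed relatives of miR-16-5p that could be tested, and it split the libraries the way miR-16-5p did. Its share was 0.0204% to 0.144% in the miR-5119-rich set, against 0% to 0.0180% in the miR-5119-poor set, where the 0 of C26 plasma library 6 allows up to 0.00931%.

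Of the 7 listed red cell markers, all counted in each of the 10 plasma libraries, 4 are the miRNAs described here and miR-144-5p is the other strand of one, so the list is no separate check of their name. Its summed share, of which miR-486a-5p is a large part, was 4.42% to 55.3% in tumour-bearing mice and 7.46% to 35.0% in controls. The remaining markers, miR-25-3p and miR-92a-3p, overlapped between the sets of libraries. miR-25-3p held 0.322% to 2.75% in the miR-5119-rich set and 1.40% to 2.80% in the miR-5119-poor set. miR-92a-3p held 0.228% to 0.692% in the miR-5119-rich set and 0.373% to 0.931% in the miR-5119-poor set. Markers of platelets and endothelium summed to 1.02% to 2.24% in tumour-bearing mice and 0.892% to 2.36% in controls, and those of white blood cells to 0.351% to 0.799% in tumour-bearing mice and 0.570% to 0.873% in controls. Muscle markers, listed because muscle also makes miR-486a, summed to 1.77% to 14.9% in tumour-bearing mice and 0.742% to 4.01% in controls. They were at 1.94% to 14.9% in the miR-5119-rich set and 0.742% to 8.81% in the miR-5119-poor set, so these ranges overlapped where those of miR-486a-5p did not. miR-208b-3p was at 0 in 9 of 10 plasma libraries. Liver markers summed to 0.830% to 10.3% in tumour-bearing mice and 6.71% to 28.3% in controls. The part of these other cell types in the results above was not tested.

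The 4 miRNAs held little of the TMV counts. Together they made up 0.489%, 0.494% and 1.54% of counts in TMV replicates 1 to 3, against 3.50% to 52.7% in plasma of C26-bearing mice and 5.98% to 31.3% in control plasma. The 2 materials were prepared from different sources and counted in separate tables, so no test was run between them. miR-16-5p was the exception, with 0.0710%, 0.0863% and 0.128% in TMV replicates 1 to 3, inside its range in plasma.

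miR-451a in TMVs came largely from 1 library, and miR-486a-5p was also highest in that library. miR-451a had 68, 78 and 866 counts in TMV replicates 1 to 3, or 0.0464%, 0.0694% and 0.508%. miR-486a-5p had 544, 380 and 1548 counts, or 0.371%, 0.338% and 0.908%. Relative to the mean of replicates 1 and 2 in CPM, replicate 3 had 8.77-fold more miR-451a and 2.56-fold more miR-486a-5p. These were the largest and the second largest such ratios among the 167 miRNAs with at least 10 counts in each TMV library, whose median was 0.966. miR-16-5p was 1.62-fold higher there and stood 13th.

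The proportion of the pair also differed in TMV replicate 3. There were 8, 4.87 and 1.79 counts of miR-486a-5p per count of miR-451a in TMV replicates 1 to 3. miR-144-3p had 0, 0 and 2 counts, where 0 allows up to 0.00205% and 0.00267% of counts in replicates 1 and 2. Its 2 counts in replicate 3 were 0.231% of the miR-451a counts there, below the lowest plasma library at 0.339%. miR-144-5p was at 0 in all 3 TMV libraries. Of the other lists, markers of platelets and endothelium summed to 2.30%, 1.77% and 1.91% in TMV replicates 1 to 3, overlapping their range in plasma. Liver markers summed to 0.0635%, 0.0774% and 0.110% in TMV replicates 1 to 3, white blood cell markers to 0.220%, 0.184% and 0.254%, and muscle markers to 0.205%, 1.09% and 0.168%. Without TMV replicate 3, miR-451a averaged 0.0579% of TMV counts in place of 0.208% ± 0.260 (SD, n = 3).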

How the data were processed

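Both deposited tables hold unnormalised read counts of mature miRNAs from the authors, whose tools included bcl2fastq and cutadapt 1.10 per the submitters' processing notes. The aligner, the counter and the annotation were not given there. From them, shares, ratios and tests were computed. Groups and replicate numbers came from sample titles. Plasma counts were filtered with filterByExpr (minimum count 10), scaled with TMM and tested with edgeR 4.0.16 (robust quasi-likelihood, Benjamini-Hochberg over 130 miRNAs) in R 4.3.3. Log2 ratios had 0.5 added to each count and were compared by exact two-sided permutation tests, adjusted over 7 ratios. DESeq2 1.42.0, limma 3.58.1 and other scalings, filters, library subsets and a replicate block were alternatives. The code of the fit was run on simulated counts that spread less than these libraries and held no miR-5119 split. That run does not measure the error rates of the fit in these libraries. The 4 members, the lists and the alternatives were chosen with earlier results of these data known. The miRNAs named are the members, their strands and seed relatives, the most abundant other red cell miRNAs tested and the 5 most alike. Sequences are from RefSeq (GRCm38.p6), and 12 of 16 looked up were found. miR-486b and miR-451b are not listed among the plasma miRNAs and were not analysed here. Depth ran from 7962 to 131385 counts in plasma and from 112357 to 170571 in TMVs, and a count of 0 was read as up to 3 counts. Replicate numbers were not treated as pairs.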

Additional observations from a re-analysis of the deposited data

Results flagged for a closer look

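The log2 ratio of miR-451a to miR-23a-3p in control library 4 was 5.24, against 7.41 to 7.82 in the other 3 controls. Its gap to the nearest of them was 0.841 of the range of the 4. It is the miR-5119-rich control and rests on 283 and 7 counts. Shares of the 4 miRNAs and 10 ratios were examined in each plasma group, 28 sets of values in all, of which chance marks about 1 in 20.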

How the results depend on the processing

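No alternative called any of the 4 miRNAs or any ratio. miR-144-3p and the 4 ratios miR-144-3p to miR-451a, miR-16-5p to miR-451a, miR-144-3p to miR-16-5p and miR-451a to miR-23a-3p kept their direction under each alternative run. The count over all miRNAs was 0 with edgeR, 4 with DESeq2, 17 with limma voom and quality weights, 4 without a filter, 2 with a term for the miR-5119 set, 1 within the miR-5119-rich set, and 0 to 1 with each library left out. The log2 fold change of miR-486a-5p turned to 0.065 with RLE scaling and 0.065 with DESeq2, 0.14 without the 2 controls whose descriptions carry 2 numbers, 0.48 with the term and 1.08 within the miR-5119-poor set, where miR-16-5p turned to -0.27. With each library left out, miR-486a-5p lay between -1.45 and 0.31, miR-451a between -0.57 and 0.079, and the log2 difference in miR-486a-5p to miR-144-3p between -0.95 and 0.41. Without the 2 controls with 2 numbers that ratio turned to 0.74 and miR-486a-5p to miR-451a to 0.092. Within the miR-5119-poor set they turned to 1.26 and 1.23, and miR-486a-5p to miR-16-5p to 0.92. Within the miR-5119-rich set they turned to 1.61 and 0.32. The cause of these turns was not tested. With miR-5119 left out of the totals the mean share in C26-bearing plasma was 4.38% for miR-451a and 0.299% for miR-16-5p. With a replicate block the log2 fold change of miR-486a-5p was -2.49 (edgeR adjusted p = 0.167) and 0 miRNAs were called. Same-numbered libraries had correlations of deviations from -0.37 to 0.16, so the numbers were not taken as pairs. No alternative with miR-486b counts added was run, since miR-486b is not listed among the plasma miRNAs. A within-set permutation cannot go below 0.1 in the miR-5119-poor set or 0.2 in the miR-5119-rich set. The exact permutation with the replicate block cannot go below 0.125, so none of these settings could call a ratio. Depth limits miR-144-3p, at 4 counts in 2 libraries.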
